A study of Rattus norvegicus with 4 samples.

Results

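The circadian clock genes described here are the 10 entries of the deposited count table named Arntl, Clock, Per1, Per2, Per3, Cry1, Cry2, Dbp, Tef and Hlf, out of 32545 genes in all. They were measured in S16 cells, a rat Schwann cell line, by sequencing of polyadenylated RNA. In 2 libraries the cells had received a control siRNA (IDT DS NC1), and in the other 2 they had received siRNAs against Nr2f1 and Nr2f2 together, 1 reagent for each gene, per the labels. All 4 libraries came from transfected cells of this single immortalized line grown in 6-well plates, so no untransfected cells and no primary Schwann cells were compared. The sources used here do not state the hour of harvest, the time since transfection or medium change, or any treatment to synchronise the cells.

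The clock of mammalian cells is a transcriptional loop. The bHLH-PAS proteins encoded by Arntl (BMAL1) and Clock pair and activate genes through E-box sequences, among them the Per and Cry genes, whose products bind the pair and repress it. A second loop runs through the nuclear receptors REV-ERB (Nr1d1, Nr1d2) and ROR, which repress or activate Arntl through shared elements, and the PAR-bZIP factors DBP, TEF and HLF carry the rhythm to D-box genes. The targeted genes Nr2f1 and Nr2f2 encode COUP-TFI and COUP-TFII, orphan nuclear receptors that bind repeats of the AGGTCA half-site, which is also the core of the REV-ERB and ROR element.

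The 4 libraries held between 21556011 and 43057750 counts assigned to genes. Those of each group are called A and B, following their order among the deposited columns. Nr2f1 was at 27.1% and Nr2f2 at 24.4% of the control level, with no overlap between the groups. All 10 Schwann cell markers looked for had counts, with Sox10 between 686 and 760 CPM. The summed CPM of the 10 markers was 14550 and 15090 in control and 16760 and 16090 in siRNA libraries. Of markers of other cell types, Dcn, Lum, Ptprc, Cd163, Cdh5, Kdr, Rbfox3 and Stmn2 had 0 counts. The summed levels of the 6 macrophage markers were between 1.55 and 1.83 CPM. The 4 endothelial markers in the table summed to 13.1 and 13.5 CPM in control and 15.5 and 17.2 CPM in siRNA libraries, and the 6 neuron markers, nearly all of whose counts were Tubb3, to 78.1 and 81.7 against 107.6 and 89.5 CPM. Of these, Vwf (log2 fold change 0.69, adjusted p = 0.00762) and Tubb3 (0.31, adjusted p = 0.0421) were called higher, Tubb3 not by limma-voom, while the other tested marker of each list, Tek (-0.44) and Syp (-0.43), had lower siRNA values without overlap and without a call. The 6 fibroblast markers, led by the collagen genes Col1a1, Col3a1 and Col1a2, summed to between 13840 and 14700 CPM. Most of this sum was Col1a1, at 11540 to 12015 CPM, so it says little of the other members. Col1a2 was at 1025 and 1609 CPM in control and at 443 and 953 CPM in siRNA libraries, without overlap. Col3a1 (log2 fold change 0.20, adjusted p = 0.0611) and Pdgfra (0.88, adjusted p = 0.0505) had higher siRNA values without overlap. The edgeR test called none of these fibroblast markers. The part of any of these in the clock results was not tested.

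Clock, Per2 and Tef were lower after siRNA against Nr2f1 and Nr2f2, and no clock gene was higher by edgeR's quasi-likelihood test at an adjusted p under 0.05. Per2 fell to 63.9%, Clock to 70.4% and Tef to 79.7% of control, while Per1, Cry2 and Dbp stayed within 5% of control in their group means. Of the 10 genes 9 were tested; Hlf had no counts. The count of 3 lower among 9 stands beside 10.0% of all 13018 tested genes, and the count of 0 higher beside 8.05%. At an unadjusted p under 0.05, 4 clock genes were lower and 1 higher. DESeq2 and limma-voom each called 3 lower and 0 higher. The authors' deposited table also has 3 lower, where 6.77% of its genes are lower, and 0 higher, where 4.49% are. Its log2 fold changes of Clock (-0.514) and Per2 (-0.654) match those of the DESeq2 fit to the same counts, so it is not a separate result. Over the 9, the median log2 fold change was -0.01, against 0.01 over all tested genes and 0.01 over the 4592 genes with a mean between 10.7 and 51.8 CPM, the range of the clock genes. With scaling by library size instead of TMM, 57.8% of all called genes were higher, against 44.6% with TMM, and 1 clock gene, Arntl, was called higher. In bulk RNA, fewer cells expressing a gene and less of its RNA per cell cannot be told apart.

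**Figure D1:**
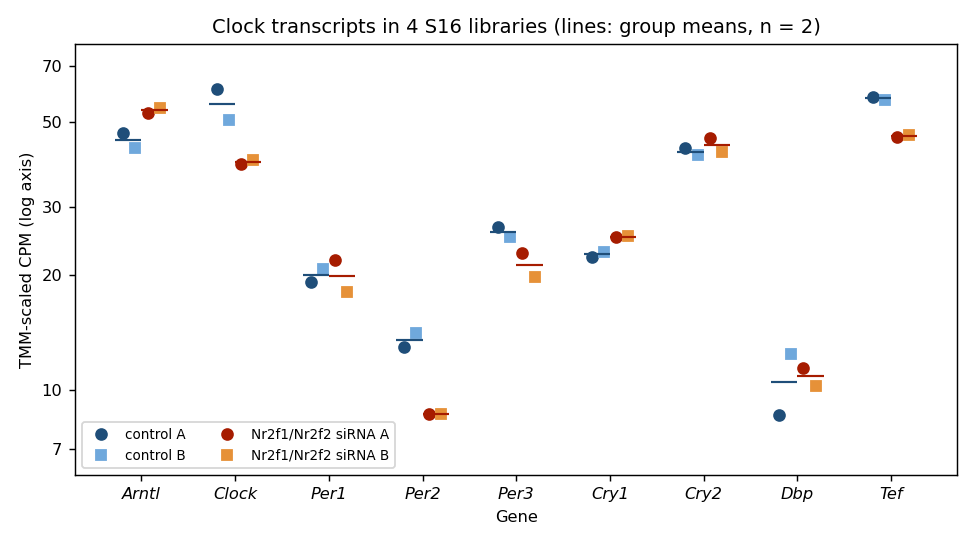
TMM-scaled CPM on a log axis for each tested clock gene in the control libraries (blue) and the Nr2f1/Nr2f2 siRNA libraries (red and orange); horizontal lines are group means, n = 2. For Clock, Per2, Per3 and Tef both siRNA libraries lie below both controls, and for Arntl and Cry1 above them.

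Of the activator pair, Clock was called lower and Arntl was not called. Clock (ENSRNOG00000002175, chromosome 14 from 34446616 to 34502218, plus strand, in the deposited coordinates, whose build the sources used here do not name), which encodes the histone-acetylating partner of BMAL1, had 60.9 and 50.7 CPM in control and 38.8 and 39.8 CPM in siRNA libraries. Both siRNA values lay below both controls, and the controls differed more from each other than the siRNA libraries did. Clock fell from 55.8 ± 7.20 to 39.3 ± 0.730 CPM (SD, n = 2), and the log2 fold change was -0.51 with an SE of 0.10 (adjusted p = 0.00492). Without control A the log2 fold change was -0.37 and the call was lost (adjusted p = 0.0561). Arntl (ENSRNOG00000014448, chromosome 1 from 178039063 to 178137465, plus strand) was at 46.8 and 42.9 CPM in control and at 53.0 and 54.4 CPM in siRNA libraries. The groups did not overlap, as in 30.1% of tested genes in this direction, but Arntl, with a log2 fold change of 0.26 and an SE of 0.09, was not called (adjusted p = 0.0694). It passed with library-size scaling (0.31, adjusted p = 0.0302) and with upper-quartile scaling (0.29, adjusted p = 0.0406).

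The RefSeq table of promoters (build GRCr8, 250 bases before to 50 after the start) held 8 of the 10 clock genes, with Arntl under its current symbol Bmal1; Cry1 and Hlf were not matched. The windows of Arntl, Per2 and Tef are shown because they hold the response elements around which the clock loops are described, and the second of the pair of Nr1d1 windows because Nr1d1 is the gene that joins the loops. Capitals mark every match, on either strand, to the E-box CACGTG, its variant CACGTT, the D-box TTATGTAA or TTACGTAA, the REV-ERB and ROR element ANTAGGTCA with its variant ANTAGGTTA, and the half-site AGGTCA, which lies inside ANTAGGTCA. All are written in the direction of transcription.
Arntl (Bmal1), chr1:176766078-176766377, plus strand: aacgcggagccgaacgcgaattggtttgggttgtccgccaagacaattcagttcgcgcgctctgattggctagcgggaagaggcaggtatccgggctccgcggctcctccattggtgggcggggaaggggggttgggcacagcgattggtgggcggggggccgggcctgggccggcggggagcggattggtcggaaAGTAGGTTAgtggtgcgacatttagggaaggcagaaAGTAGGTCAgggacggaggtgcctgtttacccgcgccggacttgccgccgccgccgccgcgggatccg
Per2, chr9:99496944-99497243, minus strand: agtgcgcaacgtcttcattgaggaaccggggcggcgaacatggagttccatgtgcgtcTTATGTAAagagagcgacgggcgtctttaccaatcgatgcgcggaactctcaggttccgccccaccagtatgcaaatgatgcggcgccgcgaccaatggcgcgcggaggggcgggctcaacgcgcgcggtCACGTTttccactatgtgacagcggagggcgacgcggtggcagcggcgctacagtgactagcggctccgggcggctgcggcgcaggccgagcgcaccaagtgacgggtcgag
Tef, chr7:115206577-115206876, plus strand: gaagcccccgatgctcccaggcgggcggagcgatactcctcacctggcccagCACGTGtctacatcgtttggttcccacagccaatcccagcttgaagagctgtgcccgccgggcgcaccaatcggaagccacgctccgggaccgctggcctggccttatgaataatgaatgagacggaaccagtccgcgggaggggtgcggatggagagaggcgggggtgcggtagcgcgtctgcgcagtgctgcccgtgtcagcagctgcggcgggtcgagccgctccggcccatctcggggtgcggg
Nr1d1, chr10:84229405-84229704, minus strand: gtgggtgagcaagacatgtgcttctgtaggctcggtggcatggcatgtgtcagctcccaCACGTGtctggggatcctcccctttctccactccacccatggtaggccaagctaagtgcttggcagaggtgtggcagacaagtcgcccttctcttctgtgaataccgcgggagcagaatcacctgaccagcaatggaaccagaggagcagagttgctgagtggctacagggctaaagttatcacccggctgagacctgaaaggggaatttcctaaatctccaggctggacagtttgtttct

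Counted from the first transcribed base as 1, the Arntl window holds the variant element starting at -54 and the element at -18. Among all 33469 promoter windows of the table, 0.657% hold ANTAGGTCA, 0.388% the variant and 16.2% the half-site. The Per2 window holds TTATGTAA at -192, found in 0.893% of windows, and CACGTT at -62, found in 4.83%. Tef has CACGTG at -198 and the shown Nr1d1 window has it at -191, a motif held by 6.42% of windows. TTACGTAA was in none of the clock gene windows and in 0.12% of all. The Cry2 window holds CACGTT on the opposite strand, and those of Clock, Per1, Per3 and Dbp hold none of these letters. A match is a description of letters, and no binding was measured.

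Among the Period genes, whose proteins form the repressor complex with the cryptochromes, Per2 was the one that passed the test. Per2 (ENSRNOG00000020254, chromosome 9 from 98555169 to 98597359, minus strand) was at 12.9 and 14.1 CPM in control and at 8.62 and 8.63 CPM in siRNA libraries. It fell from 13.5 ± 0.852 to 8.63 ± 0.00836 CPM (SD, n = 2; log2 fold change -0.64 with an SE of 0.14, adjusted p = 0.00835), from 334 and 301 counts in control to 225 and 378 counts in siRNA libraries, of which siRNA B was the deepest. The call was kept in each fit without 1 library, with adjusted p up to 0.0427 over all alternatives.

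Per1, the paralog that responds fastest to cAMP and glucocorticoid signals, was at 19.1 and 20.7 CPM in control and at 21.8 and 18.0 CPM in siRNA libraries. The siRNA libraries lay on either side of the controls, the log2 fold change was -0.01 (95% interval -0.29 to 0.26), and its sign was positive with library-size or upper-quartile scaling. Per3 was at 26.6 and 25.1 CPM against 22.7 and 19.7 CPM, and its log2 fold change of -0.30 (SE 0.11) gave an adjusted p of 0.0969. Its libraries did not overlap, as in 28.5% of tested genes in this direction.

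Cry1 and Cry2, whose proteins are the strongest direct repressors of the activator pair, gave no call. Cry1 was at 22.2 and 22.9 CPM in control and at 25.1 and 25.1 CPM in siRNA libraries, and Cry2 at 42.7 and 40.9 CPM against 45.4 and 41.9 CPM. The Cry1 libraries did not overlap and the Cry2 libraries did. The log2 fold change was 0.15 for Cry1 (95% interval -0.08 to 0.38, adjusted p = 0.351) and 0.06 for Cry2 (-0.15 to 0.26, adjusted p = 0.734), so changes beyond these bounds are outside the intervals and smaller ones were not resolved. Over the clock genes that passed the filter, the groups did not overlap in 2 with higher and 4 with lower siRNA libraries, where 58.6% of all tested genes had no overlap in one direction or the other.

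Of the PAR-bZIP factors, the output arm of the clock, Tef was called lower, Dbp was not called and Hlf had no counts. Tef (ENSRNOG00000019383, chromosome 7 from 123043503 to 123058604, plus strand) was at 58.2 and 57.2 CPM in control and at 45.7 and 46.2 CPM in siRNA libraries, with a narrow spread in both groups. The log2 fold change of Tef was -0.33 (SE 0.09, adjusted p = 0.0203). This call was lost without control A (adjusted p = 0.0887), siRNA A (0.0909) or siRNA B (0.0959), while the log2 fold change stayed between -0.35 and -0.28 in all alternatives. Dbp, a classical E-box target with one of the widest rhythms in most tissues, was at 8.58 and 12.4 CPM in control and at 11.4 and 10.3 CPM in siRNA libraries. Both siRNA values lay between the controls, and the log2 fold change of 0.05 had a 95% interval from -0.33 to 0.44. It was -0.21 without control A and 0.32 without control B. Hlf had 0 counts in all 4 libraries, where 3 counts correspond to between 0.0685 and 0.141 CPM.

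**Figure D2:**
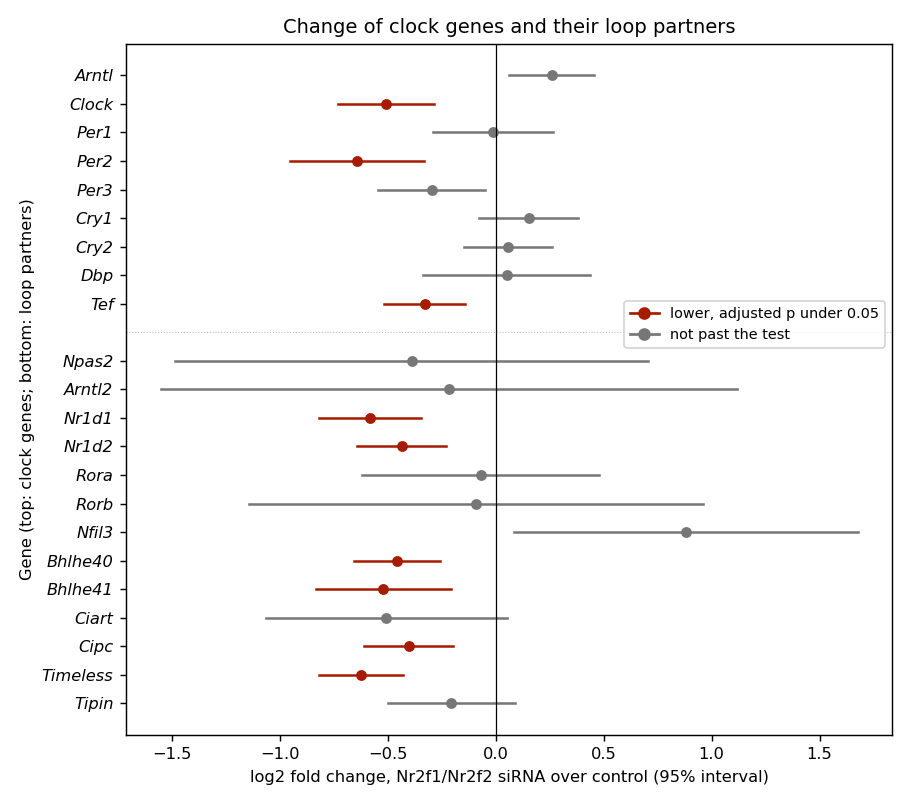
Log2 fold change of each tested clock gene (top) and loop partner (bottom), Nr2f1/Nr2f2 siRNA over control, with its 95% interval; red marks adjusted p under 0.05. Of 9 clock genes 3 are red and of 13 loop partners 6 are red, all to the left of 0, from Per2 at -0.64 to Tef at -0.33.

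Per unit of transcript length, Arntl was the most abundant of the tested clock genes and Per2 the least in every library. By the authors' deposited FPKM values, Arntl was at 15.6 and 14.2 FPKM in control and at 17.6 and 18.1 FPKM in siRNA libraries, and Per2 at 2.21 and 2.41 against 1.47 and 1.47 FPKM. In control, Tef (13.9 and 13.6 FPKM), Cry2 (10.7 and 10.2) and Cry1 (7.54 and 7.75) followed Arntl in that order without overlap. Dbp (5.00 and 7.21 FPKM) came next by its mean and overlapped Clock (6.41 and 5.32), Per3 (5.29 and 4.96) and Per1 (4.69 and 5.05). Per3 and Per1 overlapped each other, and both lay below Clock. In the siRNA libraries Clock stood at 4.07 and 4.17 FPKM. There Cry2 (11.3 FPKM) was above Tef (10.8) in siRNA A and below it (10.4 and 11.0) in siRNA B.

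Ratios of clock transcripts within a library do not depend on how libraries are scaled. The ratio of Clock to Arntl by FPKM was 0.410 and 0.373 in control and 0.231 and 0.231 in siRNA libraries, 0.59 times the control ratio. Per2 to Per1 was at 0.472 and 0.478 in control and at 0.277 and 0.336 in siRNA libraries. The ratio of Tef to Dbp was at 2.77 and 1.88 against 1.64 and 1.84, where control B and siRNA B nearly met. Cry1 to Cry2 overlapped between the groups, at 0.706 and 0.761 in control and 0.751 and 0.816 in siRNA libraries. With 2 libraries against 2, a two-sided exact permutation test cannot give a p below 0.333, so these 4 ratios and the others plotted are given as values.

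**Figure D3:**
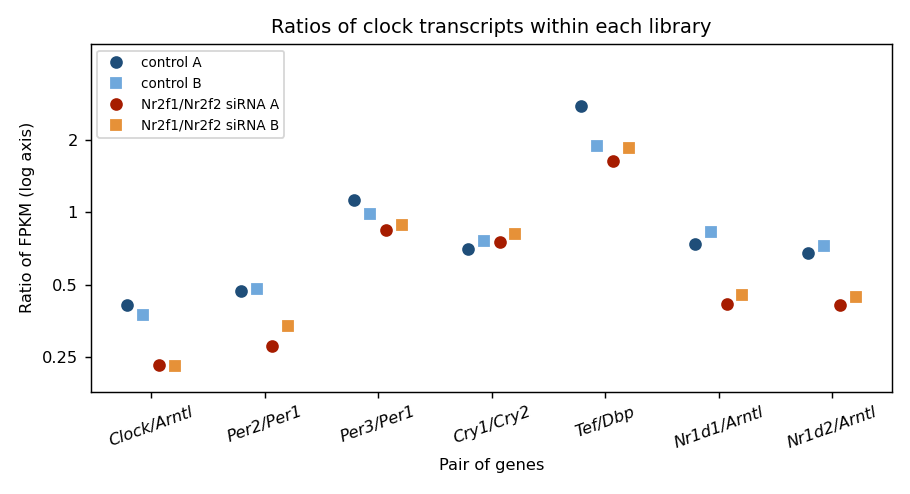
Ratio of the authors' FPKM values of 2 genes within each library, on a log axis, for 7 pairs of clock transcripts; each point is 1 library. The ratios of Clock, Nr1d1 and Nr1d2 to Arntl, of Per2 and Per3 to Per1 and of Tef to Dbp are lower in both siRNA libraries. That of Cry1 to Cry2 overlaps.

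Of 13 tested genes listed as partners in the clock loops, both REV-ERB genes, both DEC genes, Cipc and Timeless fell, the last acting chiefly at DNA replication forks in mammals. These 6 stand beside 10.0% of all tested genes lower, and the 0 that were higher beside 8.05%. By unadjusted p 6 were lower and 1 higher, DESeq2 called 5 lower and 0 higher, and limma-voom 6 lower and 0 higher. Over the 13, the median log2 fold change was -0.40. Partners named other than Nr1d1, Nr1d2, Bhlhe40 and Timeless were chosen after their values were seen.

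Both REV-ERB genes were lower. Nr1d1, which encodes the repressor REV-ERB alpha, was at 29.5 and 30.6 CPM in control and at 18.9 and 21.1 CPM in siRNA libraries (log2 fold change -0.58 with an SE of 0.11, adjusted p = 0.00311). Nr1d2, which encodes REV-ERB beta, was at 49.1 and 47.9 CPM against 33.9 and 37.6 CPM (log2 fold change -0.44 with an SE of 0.10, adjusted p = 0.00776), and its call was lost without siRNA A (adjusted p = 0.0608). In neither gene did the groups overlap. Relative to Arntl, Nr1d1 was at 0.735 and 0.832 in control and 0.416 and 0.452 in siRNA libraries by FPKM. The Nr1d1 gene shares 1059 bases at its 3' end with Thra, the gene of a thyroid hormone receptor on the other strand, which rose from 42.3 and 45.1 to 67.8 and 57.9 CPM (log2 fold change 0.52, SE 0.10, adjusted p = 0.00353). Whether counting used strand is not given, so the values of Nr1d1 are uncertain to the extent that reads of the shared bases were counted for either gene. Rora and Rorb, whose products act on the same elements as activators, were weakly expressed, with Rora between 2.58 and 3.36 CPM and Rorb between 0.536 and 1.31 CPM, and neither passed the test.

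The E-box repressor genes Bhlhe40 and Bhlhe41 (DEC1 and DEC2) fell as well. Bhlhe40 was at 45.8 and 47.9 CPM in control and at 34.2 and 34.1 CPM in siRNA libraries (log2 fold change -0.46, SE 0.09, adjusted p = 0.00483). Timeless, which in mammals acts chiefly at DNA replication forks, fell most, from 71.1 and 68.2 to 43.2 and 47.1 CPM (-0.62, SE 0.09, adjusted p = 0.000529), whereas its fork partner Tipin gave no call (-0.20, adjusted p = 0.332). Bhlhe41 and Cipc fell by 0.52 (SE 0.15, adjusted p = 0.0260) and by 0.40 (SE 0.09, adjusted p = 0.0113) in log2. Cipc encodes a CLOCK-binding inhibitor. Bhlhe41 was not called by DESeq2 (adjusted p = 0.0600), without control A (log2 fold change -0.34, adjusted p = 0.25) or without siRNA B (0.153), nor was Cipc without control A (0.0649) or siRNA A (0.0600).

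Other partners at low levels gave no call. Nfil3, the D-box repressor that opposes the PAR-bZIP factors, was at 0.812 and 0.938 CPM in control and at 1.65 and 1.58 CPM in siRNA libraries (log2 fold change 0.88, SE 0.37, adjusted p = 0.121). Ciart, another repressor of the activator pair, was at 3.29 and 2.86 CPM against 2.15 and 2.19 CPM (-0.51, SE 0.26, adjusted p = 0.202). In both genes the groups did not overlap. The Ciart promoter window holds CACGTG 3 times, at -93, -35 and -21, and those of Bhlhe40 and Bhlhe41 hold it once each, at -220 and -48. The Nr1d2 window holds the half-site AGGTCA at -187, and the Nr1d1 window not shown holds CACGTT on the opposite strand at -174. Those of Timeless, Npas2 and Nfil3 hold none of the motifs. Npas2 and Arntl2, paralogs of Clock and Arntl, were at most at 1.17 CPM and 0.618 CPM.

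**Figure D4:**
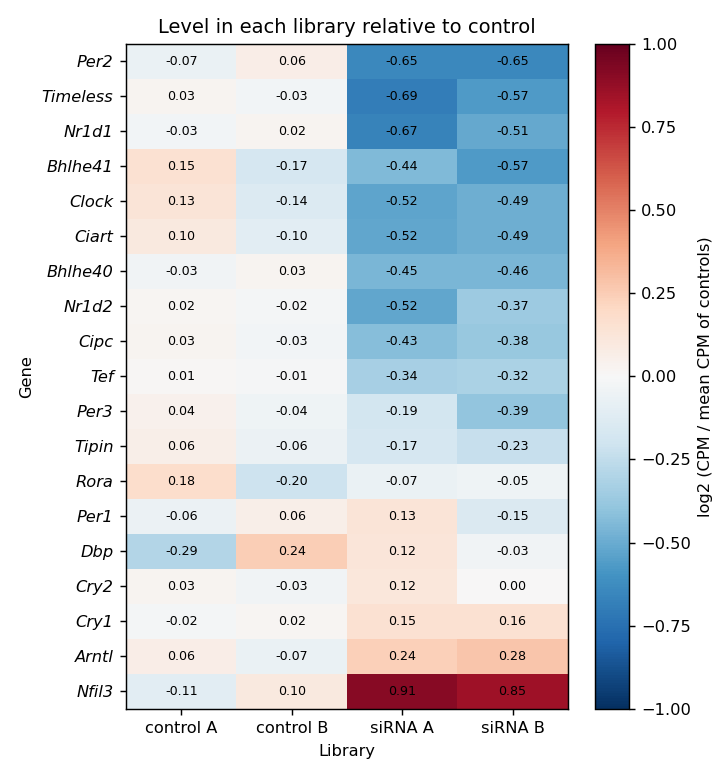
Log2 ratio of the CPM in each library to the mean of the control libraries, for clock genes and loop partners with a group mean of at least 1 CPM, ordered by fold change. In siRNA A and B, Per2 is at -0.65 and -0.65 and Clock at -0.52 and -0.49, Arntl is at 0.24 and 0.28, and Dbp varies more between the controls (-0.29 and 0.24) than between the groups.

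Of 17 tested kinase and ubiquitin ligase genes, whose products modify or degrade clock proteins, 15 did not pass, beside 18.1% called among all tested genes, and the median log2 fold change was -0.04. Prkaa1, the gene of an AMPK subunit that marks cryptochromes, fell by 0.31 (SE 0.10, adjusted p = 0.0449) and was not called by DESeq2 (0.0523), limma-voom (0.0649), with library-size (0.0825) or upper-quartile scaling (0.0692), or without control A (0.255) or siRNA A (0.259). Of 16 chromatin cofactors 2 were lower and 0 higher by edgeR, with 1 higher at an unadjusted p under 0.05, 1 by DESeq2 and 0 by limma-voom, beside 10.0% lower and 8.05% higher over all tested genes. Wdr5, a subunit of histone H3 methyltransferase complexes, fell by 0.34 (SE 0.09, adjusted p = 0.0195) and the Polycomb methyltransferase gene Ezh2 fell by 0.27 (SE 0.08, adjusted p = 0.0376). Wdr5 lost its call without control A (0.117) or siRNA B (0.168), and Ezh2 with library-size (0.0798) or upper-quartile scaling (0.0617) and without control A (0.186), siRNA A (0.103) or siRNA B (0.216).

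Among 14 tested genes that are rhythmic in many tissues, 2 rose and 1 fell, beside 8.05% higher and 10.0% lower over all tested genes. The other 11 gave no call, with a median log2 fold change of -0.01. Tsc22d3, which encodes the glucocorticoid-induced leucine zipper GILZ, rose from 22.5 and 24.4 to 37.6 and 41.1 CPM (0.75, SE 0.10, adjusted p = 0.000454). Klf9, a Krüppel-like factor gene also induced by glucocorticoids, rose by 0.35 (SE 0.10, adjusted p = 0.0232). It was at the threshold by DESeq2, with an adjusted p of 0.0506 here and 0.0495 in the authors' deposited comparison. Without any 1 library it lost the call, with a log2 fold change between 0.32 and 0.38. Sgk1, a kinase gene of the same kind of regulation, fell from 52.2 and 59.4 to 36.4 and 40.3 CPM (-0.54, SE 0.10, adjusted p = 0.00299). Of 16 genes that carry signals to Per transcription 2 rose and 0 fell by edgeR, with 1 lower at an unadjusted p under 0.05, 0 by DESeq2 and 0 by limma-voom. Over all tested genes these shares were 8.05% and 10.0%, so the counts in these 4 lists were near the background. The immediate early genes Nr4a2 (0.87, SE 0.24, adjusted p = 0.0244) and Egr1 (0.75, SE 0.21, adjusted p = 0.0268) were those 2, and DESeq2 called neither (0.108 and 0.0793). Without control A Egr1 was at 0.46 (adjusted p = 0.266); it was also lost without siRNA A (0.0612) or B (0.0654), and Nr4a2 without control A (0.132), control B (0.0836) or siRNA B (0.155).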

How the data were processed

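Polyadenylated RNA of 4 S16 libraries was sequenced, 2 per group, and groups were read from the labels and column names. Read counts deposited by the authors are whole numbers, 1 per Ensembl gene ID and library; HISAT2, featureCounts 1.5.0-p3 and DESeq2 1.20.0 are named in the submitters' processing notes without roles. The authors' comparison table gives FPKM values per library, log2 fold changes and p-values, all as deposited, and 10 per-sample columns of the deposited tables were not used. The sources used here do not give the build, annotation or strand setting.

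Counts were analysed with edgeR 4.0.16 (R 4.3.3): filterByExpr kept 13018 of 32545 genes, libraries were scaled by TMM, and a robust quasi-likelihood model (legacy off) with the group was fitted over all 4 libraries. P-values were adjusted over all tested genes by Benjamini-Hochberg, threshold 0.05; SE came from the F statistic. The biological coefficient of variation was 0.111. CPM are TMM-scaled counts. DESeq2 1.42.0, limma-voom (limma 3.58.1), other scalings and filters, and leaving out each library were alternatives; the code was tested on simulated data. Where IDs share a symbol, the one with most counts was used. The labels name no separate cultures behind the libraries of a group, and p-values rest on a spread that may be technical. Within a group the libraries differed by a mean chi-square of 12.3 per gene. This value grows with the counts and cannot tell technical from biological spread.

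The genes, lists and motifs were chosen with earlier results of these data known. Genes named were the 10 clock genes, the 2 targeted genes and, per list, up to 4 called genes of smallest adjusted p; others are marked as chosen after their values were seen, and a few genes of the lists are not reported here. Floors of 3 counts cover counting error only.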

Additional observations from a re-analysis of the deposited data

How the results depend on the processing

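The 3 clock genes called lower were 3 in each of 8 other scalings, filters and tests, one of which, edgeR's legacy quasi-likelihood method, was chosen after seeing the data. Without 1 library between 1 and 3 were lower, the 1 being Per2 without control A. Library-size and upper-quartile scaling each gave 1 clock gene higher in place of 0. Genes called in all were between 1353 and 1813 without 1 library, against 2350 with all 4. Signs that changed were all in genes without a call: Per1 (-0.01) was at 0.040 with library-size and 0.022 with upper-quartile scaling and between -0.15 and 0.13 without 1 library, Cry2 between -0.0020 and 0.11 and Dbp between -0.21 and 0.32. Of 336 refitted values of 28 single genes, 288 kept their direction and side of the threshold. No paired analysis was possible because the column numbers (3 and 1 in control, 3 and 2 in siRNA libraries) share only 1 number between the groups and differ from those given in the sample titles. Few counts limit Npas2, Arntl2, Rorb and Nfil3.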
